A study of Vitis vinifera and Vitis vinifera
Schisandra chinensis with 13 samples.

Results

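miR164 and the genes that carry its degradome sites were followed in grapevine (*Vitis vinifera*). The members were every entry of the deposited miRNA table whose name holds miR164, and every gene with a degradome cleavage site credited to such an entry. This gave 12 of 1069 miRNA names, which stand for 11 of 1030 sequences, 6 genes with sites of 5p-arm entries, and 9 genes with sites of 1 rarely read 3p-arm entry. The family was taken up because vvi-miR164a differed between the groups in these same small RNA libraries, so the levels of its entries in Vs against Vv are a description. Vv plants were self-rooted *V. vinifera*, and Vs hybrids were *V. vinifera* scions on *Schisandra chinensis* rootstocks, a woody vine of another plant family. Plants of both kinds shared 1 site and were sampled, without treatment, 25 years after grafting. RNA of leaf, phloem and whole ripe berry was mixed for each of 3 plants per group and sequenced as 6 RNA-seq and 6 small RNA libraries, and 1 mixed library gave the degradome. The methods and the source label describe that library as a mix of all samples, whereas its type label calls it self-rooted *V. vinifera*.

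As background, miR164 is a conserved plant microRNA that guides an Argonaute protein to mRNAs of NAC transcription factors, which are then cut in the stretch that pairs with it. In *Arabidopsis thaliana* these targets include CUC1 and CUC2, which set organ boundaries, NAC1, which acts in lateral root formation, and ORE1, which promotes leaf senescence. Less miR164 in that species leaves more of these transcripts.

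The deposited table lists 4 grapevine precursors. MIR164a lies at chr7:3287470-3287590 on the minus strand and MIR164d at chr14:1414565-1414682 on the minus strand. MIR164b lies at chr9:514758-514850 on the minus strand and MIR164c at chr8:10080460-10080556 on the plus strand. Coordinates follow the RefSeq chromosomes used by the authors, and the sources used here give no name for the build. The hairpins are shown because they separate the loci that the mature sequence alone cannot. They run 5′ to 3′, and capitals mark the 5p arm and the listed 3p arm.
vvi-MIR164a: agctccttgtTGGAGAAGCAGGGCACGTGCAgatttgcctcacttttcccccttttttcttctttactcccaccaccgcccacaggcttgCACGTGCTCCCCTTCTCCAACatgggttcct
vvi-MIR164d: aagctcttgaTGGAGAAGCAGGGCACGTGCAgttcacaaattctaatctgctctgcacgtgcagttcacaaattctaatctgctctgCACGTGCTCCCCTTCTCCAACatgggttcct
vvi-MIR164b: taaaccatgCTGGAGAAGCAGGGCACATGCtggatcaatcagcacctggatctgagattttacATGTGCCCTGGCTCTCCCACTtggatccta
vvi-MIR164c: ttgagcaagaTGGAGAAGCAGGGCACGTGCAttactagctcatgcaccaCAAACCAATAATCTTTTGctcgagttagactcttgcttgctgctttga
The whole 21-base guide stands once in each of MIR164a, MIR164c and MIR164d and is absent from MIR164b, whose 5p arm shares a run of 16 bases with it. In MIR164d a 40-base stretch that starts at base 23, inside the guide, recurs 32 bases further on, so that the copies overlap. MIR164c stood apart from the other hairpins. Its 5p arm and listed 3p arm have no complementary run longer than 3 bases, against 8 in MIR164a, 8 in MIR164d and 10 in MIR164b. That listed 3p arm is 18 bases long and comes from an entry with 1 read, so this run may not describe the whole hairpin. The listed folding energy of MIR164c was -24 kcal/mol, and those of the other 3 hairpins were -44.9, -49.3 and -36.1 kcal/mol.

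The mature sequences are shown with the seed, bases 2 to 8, in capitals, because the entries differ mainly by where they start and end. Names with L, R and ss give bases gained or lost at either end and substitutions against the named miRNA, which is of grapevine where the name starts with vvi and of another plant otherwise.
vvi-miR164a: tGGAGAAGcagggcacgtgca
gma-miR164a_R+1_1ss21AC: tGGAGAAGcagggcacgtgcca
tcc-miR164a_L+1: cTGGAGAAgcagggcacgtgca
vvi-miR164b_L+1R-1_1ss21CT: cTGGAGAAgcagggcacatgt
vun-miR164: tGGAGAAGgggagcacgtgca
vvi-MIR164a-p3: cACGTGCTccccttctccaac
vvi-MIR164c-p3_2ss14TA18GT: cAAACCAAtaatcatttt
The seed GGAGAAG was shared by vvi-miR164a, the gma entry and vun-miR164. The tcc entry holds all 21 bases of vvi-miR164a after 1 extra 5′ base, and this moved its seed to TGGAGAA, as in the vvi-miR164b entry. That extra base is c, whereas the base before the guide is t in MIR164a and a in MIR164c and MIR164d. MIR164b has c there but not the whole guide, so no hairpin above holds the tcc entry in full. The sequence of vvi-MIR164a-p3 is also listed as vvi-MIR164d-p3 with the same counts, so the pair was counted once. vun-miR164 is of another kind, for it maps to the opposite strand of the MIR164a and MIR164d loci, and 19 of its bases are the reverse complement of vvi-MIR164a-p3. The gma entry was listed without a genome position.

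The libraries held between 1027887 and 1738263 reads on listed miRNAs. Counts of sequences with several loci end in fractions, so they may be shared between loci, and vvi-miR164a, with 3 loci, may be understated against entries with 1 locus. A fold change between groups would not depend on this if counts were shared in the same way in every library, which was not checked. Levels below are counts per 1000000 reads (CPM) after TMM scaling. vvi-miR164a was at 5316, 5360.0 and 4171 CPM in Vv plants, against 1414, 1373 and 1154 CPM in Vs hybrids. All 3 Vs libraries were below all 3 Vv libraries, and the means were 4949 ± 674 (SD, n = 3) and 1314 ± 139.8 (SD, n = 3). The level in Vv plants was 3.77 times that in the hybrids, and the log2 fold change was -1.91 (SE 0.35). By level vvi-miR164a ranked between 18 and 25 among the 1024 entries counted once in Vv plants and between 38 and 46 in Vs hybrids. Its share of all listed reads was 0.578% in Vv replicate 1 (95% Wilson interval 0.566 to 0.590%), the highest, and 0.109% in Vs replicate 3 (0.103 to 0.114%), the lowest. These intervals cover counting error alone. The spread between plants was wider, as Vv replicate 3, at 0.434% (0.423 to 0.445%), lay outside the interval of Vv replicate 1.

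**Figure D1:**
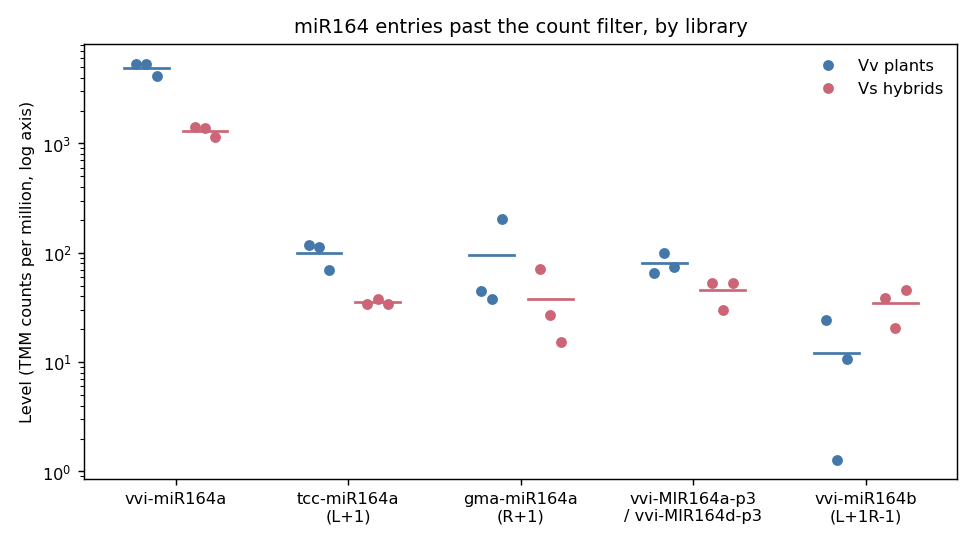
Level of each miR164 entry past the count filter in CPM after TMM scaling (log axis), with 3 points per group for replicates 1 to 3 from left to right and a line at the group mean. vvi-miR164a lies between 4171 and 5360.0 in Vv plants and between 1154 and 1414 in Vs hybrids, and the vvi-miR164b entry has its higher mean in Vs hybrids.

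The 22-base form with an extra 5′ base, tcc-miR164a_L+1, was at 119, 112 and 70.2 CPM in Vv plants and at 34.2, 37.9 and 34.1 CPM in Vs hybrids. Its groups did not overlap either, and its log2 fold change was -1.50 (SE 0.46). The opposite arm, vvi-MIR164a-p3, was at 65.9, 100.1 and 74.4 CPM in Vv plants and at 53.1, 29.9 and 52.9 CPM in Vs hybrids. It was lower in all 3 Vs libraries, with a smaller log2 fold change of -0.81 (SE 0.47). Guide reads stood to reads of this arm as 80.7, 53.6 and 56.1 to 1 in Vv plants, against 26.6, 45.9 and 21.8 to 1 in Vs hybrids. The ratio was thus lower in each Vs library. It is not the ratio of a single hairpin, as the guide is also listed for MIR164c, whose listed 3p arm differs. Its fall includes that of vvi-miR164a, on which the family was picked. The ratio of vvi-miR164a to the 22-base form was 44.8, 47.7 and 59.5 in Vv plants, against 41.4, 36.2 and 33.8 in Vs hybrids.

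The gma entry ends in an altered 3′ base and 1 more. It was at 45.0, 37.9 and 203 CPM in Vv plants and at 70.7, 26.9 and 15.2 CPM in Vs hybrids, so the groups overlapped and Vv replicate 3 was far above the other libraries. The log2 fold change of this entry went from -1.33 (SE 0.81) to -0.20 without Vv replicate 3. The vvi-miR164b entry, the 1 sequence of the MIR164b guide arm, was at 24.5, 1.28 and 10.6 CPM in Vv plants and at 38.9, 20.4 and 45.9 CPM in Vs hybrids. Its groups overlapped, and its log2 fold change of 1.51 (SE 0.81) was the 1 above 0 among the 5 sequences past the count filter.

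The other 6 names were too rarely read for a comparison, with totals of 1 to 13 reads over all libraries and at most 5 in any library. vun-miR164, on the opposite strand, had 2, 5 and 3.5 reads in Vv plants, against 0, 0 and 0.5 in Vs hybrids. vvi-MIR164c-p3 had 1 read, in Vs replicate 3. The other 4 were the 3p-arm entries vvi-MIR164b-p3, vun-MIR164-p3, rgl-MIR164-p3 and sly-miR164b-3p_R+1_2ss7TC10TC. Of these, vun-MIR164-p3 and rgl-MIR164-p3 also map to the strand opposite MIR164a and MIR164d, respectively. Runs of 19 and 18 of their bases are the reverse complement of vvi-miR164a. A count of 0 still allows up to 3 reads, which is between 1.69 and 2.99 CPM depending on the library.

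Summed over the 5 entries not marked as the 3p arm, miR164 was at 5505, 5515 and 4458 CPM in Vv plants and at 1558, 1458 and 1249 CPM in Vs hybrids. vvi-miR164a made up between 90.8 and 97.2% of this sum. The means were 5159 ± 607 and 1422 ± 157 (SD, n = 3 each), a ratio of 3.63. By edgeR's quasi-likelihood test with Benjamini-Hochberg adjustment, 1 of the 5 sequences, vvi-miR164a, was past an adjusted p of 0.05, beside 6.02% of the 332 tested miRNAs. This call was kept without Vv replicate 3 and lost without any other single library (adjusted p 0.0546 to 0.0805). In 3 of the 5 the Vs libraries were all below the Vv libraries, beside 15.4% of tested miRNAs. The family was picked on this contrast, so nothing is read from these counts.

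**Figure D2:**
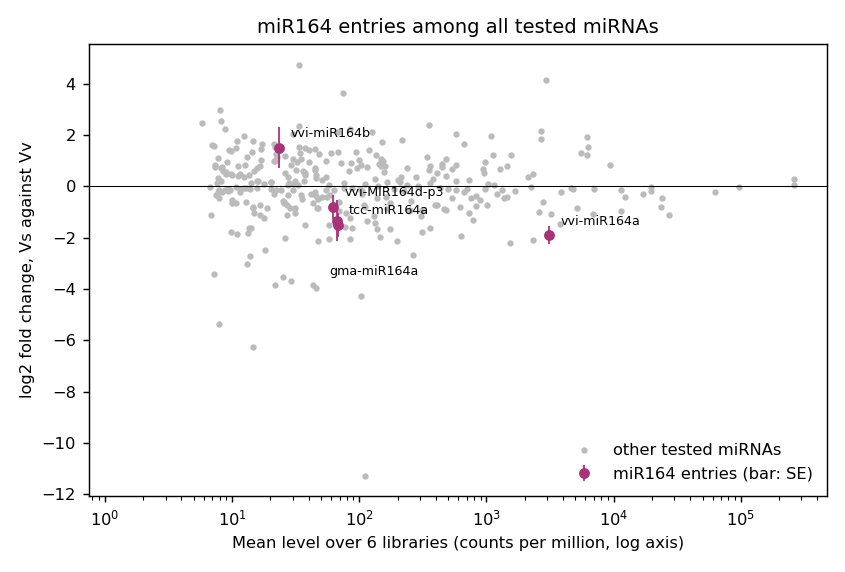
Log2 fold change of Vs against Vv (y axis) against the mean level over the 6 libraries in CPM (x axis, log) for the 332 tested miRNAs, with the 5 miR164 sequences in purple and bars of 1 SE. vvi-miR164a, at -1.91, is by far the most abundant of the family, and the vvi-miR164b entry, at 1.51, is the 1 above the zero line.

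The 5 miRNAs whose pattern over the 6 libraries was most like that of vvi-miR164a were found by the root mean square difference of their centred log2 levels, which had a median of 1.19 over 327 tested miRNAs of other families. They were vvi-MIR535c-p3 (0.29), vvi-miR390 (0.36), vvi-miR3624-5p (0.42), vvi-MIR403f-p5 (0.45) and vvi-miR3632-5p_1ss14AG (0.46). vvi-miR390, which in *Arabidopsis thaliana* triggers the trans-acting siRNAs against auxin response factors, was at 1339, 643 and 1012 CPM in Vv plants and at 311, 253 and 215 CPM in Vs hybrids. All 5 were lower in each Vs library than in each Vv library, a direction that their choice by likeness over these libraries largely fixes.

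Degradome reads mark the 5′ ends of cut transcripts, so a pile of reads opposite the middle of a miRNA is taken as its cleavage site. Sites were graded from category 0, where the position holds the single highest pile of the transcript, through 1 (tied highest) and 2 (below the highest but above the median), to 4, a single read. Sites credited to the 5p-arm entries were detected in 17 of 55 predicted pairs of an entry and a transcript, beside 1559 of 8858 for all small RNAs. Of the 55 pairs, 13 were of vun-miR164, which maps to the opposite strand, and 1 of these was detected. Of these 17 pairs, 4 were in category 0, 2 in category 1, 2 in category 2 and 9 in category 4. Over the 1559 detected pairs of all small RNAs, category 0 held 23.9%, category 1 held 1.35%, category 2 held 43.3% and category 4 held 30.1%. Pairs of several entries or transcripts with 1 gene share their reads and are not separate evidence. The deposited positions place all 17 cuts opposite base 10 of the entry, counted from its 5′ end. Sites are credited by reads opposite the middle of the entry, so this position is not further evidence of cleavage.

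The 19-read site in MSTRG.6725 (VIT_14s0108g01070) was the 1 gene in category 0. Its reads began at base 826 of the annotated transcript, opposite an alignment that runs from base 815 to 835 with vvi-miR164a. The alignment score was 4, where 0 is full pairing and a higher score is poorer pairing. A single read began 1 base on, at 827, and this position was credited to the tcc and vvi-miR164b entries, whose extra 5′ base moves their base 10 by the same step. The position set by the start of vvi-miR164a and the gma entry thus held 19 reads and its neighbour 1. MSTRG.8993 (VIT_17s0000g06400) had the most reads, 24 at base 939 in category 1, and the lowest alignment score of these sites, 2 with vvi-miR164a. In MSTRG.12014 (VIT_19s0027g00230) 4 reads began at base 638, in category 2, with a score of 2.5. A single read was found at base 733 of VIT_19s0014g02200 and at base 108 of transcripts of MSTRG.13296 (VIT_03s0038g04270), both in category 4.

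The last of the 6 genes, VIT_08s0007g02370, had 1 read credited to vun-miR164. No detected site of a small RNA of another family fell on MSTRG.6725, MSTRG.8993, MSTRG.12014, MSTRG.13296 or VIT_19s0014g02200. Reads at 24 or more occurred in 342 and at 19 or more in 365 of the 1559 detected pairs, and the median over all pairs was 3. The p-values deposited with the sites were 0.0355 for vvi-miR164a at MSTRG.6725, 0.00437 at MSTRG.8993 and 0.403 at MSTRG.12014. For its single-read sites they were 0.440 at VIT_19s0014g02200 and 0.997 at MSTRG.13296. With 1 mixed library, cleavage could not be compared between Vv and Vs.

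**Figure D3:**
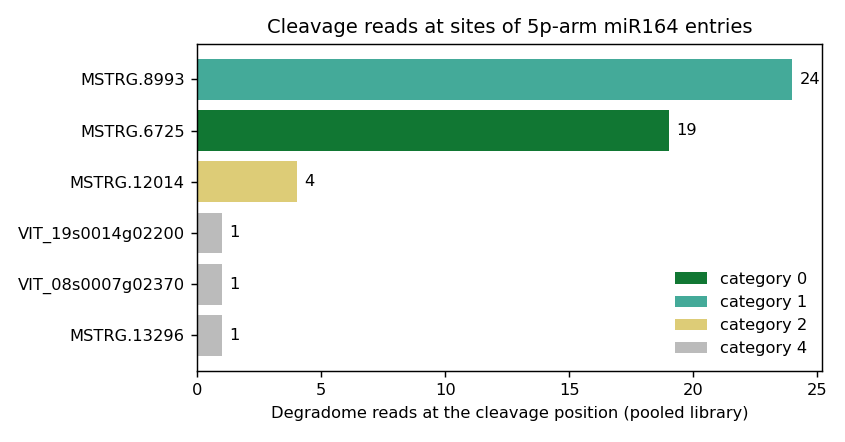
Degradome reads at the cleavage position (x axis, bars from 0) in the 6 genes with a site of a 5p-arm miR164 entry, coloured by category. MSTRG.8993 has 24 reads and MSTRG.6725 19, MSTRG.12014 has 4, and the other 3 genes have 1 read each.

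The 14 detected pairs of 3p-arm entries all belonged to vvi-MIR164c-p3, the 18-base sequence with 1 read in 1 small RNA library, for which 121 pairs had been predicted. Their sites held 1 to 4 reads, 7 of them in category 2 and 7 in category 4, and their deposited p-values were close to 1. The cuts lay opposite base 10 or 11 of the entry. Of the 9 genes, 5 had category 2 sites. THE1 (MSTRG.11426), a receptor kinase that senses the cell wall, was at 9.80, 9.02 and 21.5 FPKM in Vv plants and 2.75, 12.5 and 5.52 FPKM in Vs hybrids, so the groups overlapped (log2 fold change -0.96, SE 0.55, adjusted p = 0.348 by limma). ATVAMP727 (MSTRG.4725), a vesicle fusion protein of the vacuolar pathway, was at 69.4, 65.7 and 73.7 FPKM against 41.5, 54.1 and 53.9 FPKM (log2 fold change -0.48, SE 0.21, adjusted p = 0.253 by limma). MSTRG.5667 (VIT_14s0030g00750) was at 22.4, 24.7 and 31.1 FPKM against 14.1, 16.9 and 17.1 FPKM (log2 fold change -0.66, SE 0.22, adjusted p = 0.198 by limma). The Vs libraries of the last 2 genes were all below their Vv libraries, beside 26.2% of all genes. No FPKM value was matched to the other 2, VIT_17s0000g03860 and VIT_19s0014g03400. The 4 genes in category 4 were MSTRG.11019, MSTRG.4866, MSTRG.5871 and MSTRG.8047. Of the 9 genes, 6 were tested in the RNA-seq libraries, and none changed by limma at an adjusted p under 0.05 (lowest 0.198), and 1 had an unadjusted p under 0.05, beside 20.4% of all tested genes. No detected site belonged to vvi-MIR164a-p3, the abundant 3p arm, for which 6 pairs were predicted.

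The tables give no NAC name to the targets of vvi-miR164a. MSTRG.12014, MSTRG.6725, MSTRG.8993 and VIT_19s0014g02200 carry the same set of gene ontology terms, those of nuclear, DNA-binding regulators of transcription. This set stood on 119 genes of the expression table, of which 25 had a symbol and 17 of these were NAC genes. MSTRG.13296 has terms of the chloroplast outer membrane and of protein targeting to the chloroplast instead. Expression is in fragments per length of transcript and number of mapped reads, the unit FPKM. In the deposited table the decimals of the FPKM followed the number of transcripts listed for a gene, with more than 6 decimals in 99.99% of genes with 2 or more transcripts and in 1.47% of genes with 1. A table in the paper's supplement pairs values with other gene IDs, and the deposited pairing is used here.

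MSTRG.12014 was at 13.7, 24.4 and 24.6 FPKM in Vv plants and at 1.01, 2.96 and 1.92 FPKM in Vs hybrids. Each Vs library was below each Vv library, and the means were 20.9 ± 6.24 and 1.96 ± 0.979 (SD, n = 3 each). Its log2 fold change was -2.89 (SE 0.36) on the log2(FPKM + 1) scale, which understates changes at low FPKM, with an adjusted p of 0.0403 by limma. This fall kept its direction in all 12 alternative fits but passed the threshold in 1 of them, with adjusted p between 0.0373 and 0.153, and without each single library it was between 0.0560 (without Vv replicate 1) and 0.153 (without Vv replicate 2). Both this gene and vvi-miR164a, which is credited with cutting it, were thus lower in Vs hybrids.

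MSTRG.6725, with the category 0 site, was at 14.8, 13.6 and 5.35 FPKM in Vv plants and at 0.637, 3.70 and 4.45 FPKM in Vs hybrids. The groups did not overlap, though Vv replicate 3 and Vs replicate 3 were close. The log2 fold change was -1.71 (SE 0.58), with an adjusted p of 0.202 by limma. MSTRG.8993, with the most cleavage reads, was at 4.48, 15.1 and 29.7 FPKM in Vv plants and at 1.17, 14.8 and 11.1 FPKM in Vs hybrids. Its groups overlapped, replicate 1 was the lowest library in each group, and its log2 fold change was -0.90 (SE 0.94, adjusted p = 0.588 by limma).

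MSTRG.13296 was at 244, 241 and 199.5 FPKM in Vv plants and at 169.8, 192 and 194.5 FPKM in Vs hybrids, and its log2 fold change was -0.29 (SE 0.20, adjusted p = 0.415 by limma). This is close to the median of all tested genes, and under median-ratio scaling the value was 0.00. VIT_19s0014g02200 was between 0.0811 and 0.0872 FPKM in Vv plants and between 0.0933 and 0.292 FPKM in Vs hybrids, below the mean of 1 FPKM set for the test. VIT_08s0007g02370 was not analysed for expression here.

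**Figure D4:**
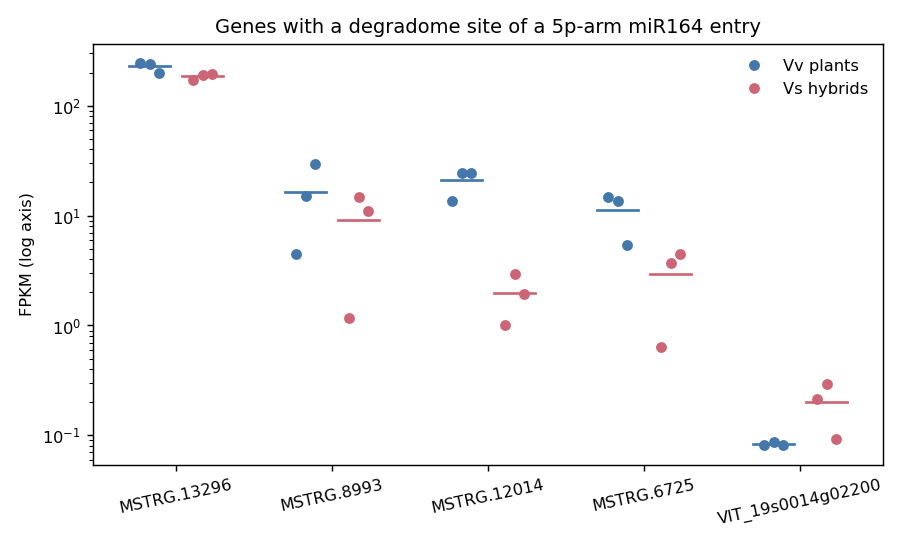
FPKM (log axis) of 5 genes with a degradome site of a 5p-arm miR164 entry, with 3 points per group for replicates 1 to 3 from left to right and a line at the group mean. The points of MSTRG.12014 lie between 13.7 and 24.6 in Vv plants and between 1.01 and 2.96 in Vs hybrids, while those of MSTRG.8993 overlap.

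Of the 4 target genes tested, 1 passed, and it was lower in Vs hybrids, beside 0.278% lower and 0.278% higher of 15447 genes. In 3 of the 4 the groups did not overlap and Vs was lower, beside 26.2% of all genes. MSTRG.13296, with 1 degradome read in category 4, is among these 3. All 4 had a log2 fold change below 0, beside 67.5% of all genes. The median of the 4 was -1.31 and that of all tested genes -0.25. The median of all genes moved to -0.01 under median-ratio scaling and to -0.07 under quantile normalization, where the 4 targets had medians of -1.07 and -1.15. None of the 4 was higher in Vs hybrids, where vvi-miR164a was lower. The untested VIT_19s0014g02200 was higher in each Vs library than in each Vv library, at no more than 0.292 FPKM. Small RNA and RNA libraries with the same number are not stated to come from the same plant, so no relation between them was computed.

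Markers of the mixed organs were read in the same libraries. The summed FPKM of 10 light-harvesting genes, which mark leaf tissue, was 3660, 3657 and 565 in Vv plants, against 5284, 4521 and 7125 in Vs hybrids, and MSTRG.4498, 1 of 2 entries named LHCA1, was at 0 in all Vv libraries. The low sum of Vv replicate 3 widened the gap between the group means, but the sums of the other Vv libraries also lay below each Vs sum. All 8 tested members had a log2 fold change above 0, whereas 67.5% of all genes were below 0. In 5 of the 8 the groups did not overlap and Vs was higher, beside 5.55% of all genes. None of the 8 passed at an adjusted p under 0.05 by limma (lowest 0.250) or had an unadjusted p under 0.05. As for the targets, which genes these values belong to, and so their direction, rests on the deposited pairing with gene IDs. At the same IDs the paper reports LHCA1 (MSTRG.4497), LHCA2 (MSTRG.1081), LHCA4 (MSTRG.8983), LHCA5 (MSTRG.10071) and LHCB5 (MSTRG.10998) as down-regulated in Vs hybrids. In the deposited pairing each of them had its higher mean in Vs hybrids. No small-subunit Rubisco gene was found by symbol. Of 8 phloem markers 1, APL, was found, at 1.58 to 3.20 FPKM in Vv plants and 3.18 to 5.61 FPKM in Vs hybrids. The anthocyanin regulator locus of berry skin was at 31.5 to 61.6 and 11.7 to 46.7 FPKM, and the anthocyanin glucosyltransferase gene at 2.08 to 8.30 and 9.97 to 18.3 FPKM. The part of these markers' tissues in the levels of miR164 and its targets was not tested. In mixed organs, fewer cells that express a gene and less RNA of it per cell cannot be told apart.

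**Figure D5:**
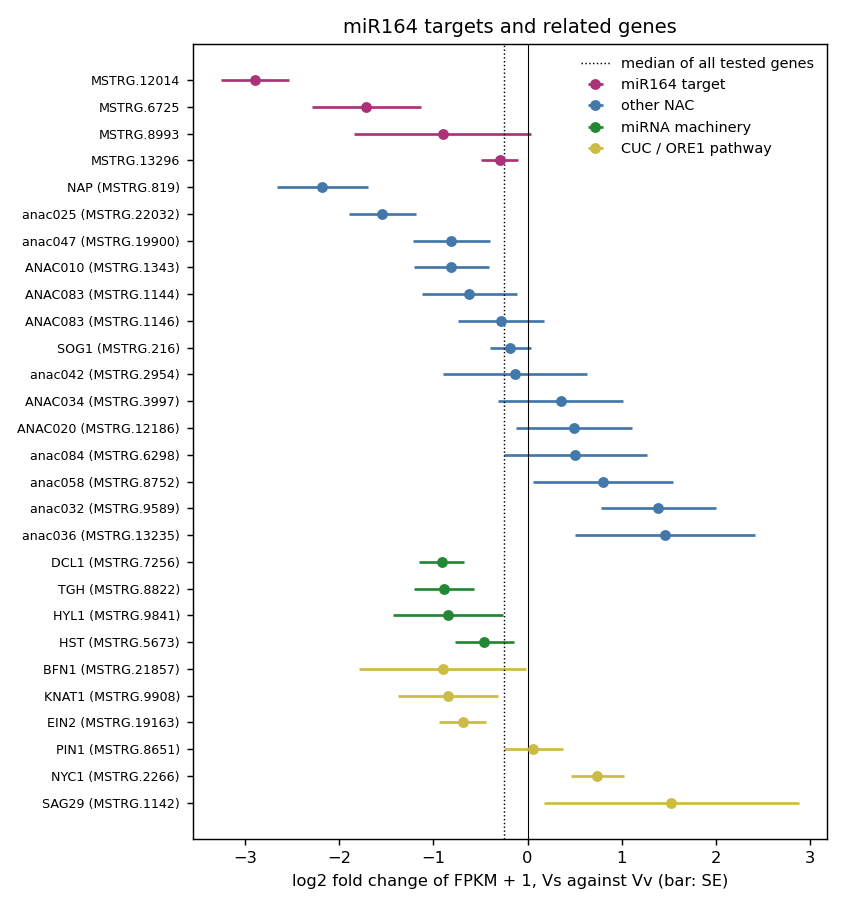
Log2 fold change of FPKM + 1 in Vs against Vv (x axis, bars of 1 SE) for 4 tested miR164 targets, 14 other NAC genes with symbols in any case, 4 genes of the miRNA machinery and 6 genes of CUC and ORE1 pathways. The dotted line is the median of all tested genes at -0.25, and MSTRG.12014, at -2.89, is the lowest of the genes shown.

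Other NAC genes were taken by symbol, targets left out, and 7 of 14 reached a mean of 1 FPKM. None passed in either direction at an adjusted p under 0.05 by limma (lowest 0.148), beside 0.557% of all genes, and 1 of the 7 had an unadjusted p under 0.05, beside 20.4% of all genes. That gene was NAP (MSTRG.819), a regulator of leaf senescence in *Arabidopsis thaliana*, at 22.9, 5.44 and 15.6 FPKM in Vv plants and at 1.83 to 2.24 FPKM in Vs hybrids. Its groups did not overlap, and the log2 fold change was -2.18 (SE 0.49, adjusted p = 0.148 by limma). The highest mean was that of ANAC083 (MSTRG.1144), at 56.2, 74.2 and 214 FPKM in Vv plants and at 59.9, 73.4 and 55.8 FPKM in Vs hybrids. SOG1 (MSTRG.216), a regulator of the DNA damage response, was at 7.81 to 10.9 FPKM in Vv plants and 7.70 to 9.44 FPKM in Vs hybrids, and its log2 fold change of -0.18 turned to 0.038 under quantile normalization and 0.086 under median-ratio scaling. ANAC010 (MSTRG.1343) was at 4.87 to 7.96 and 1.73 to 5.79 FPKM (adjusted p = 0.290 by limma), and the groups overlapped.

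A further 10 NAC symbols written in lower case were added after the values were seen, of which 7 reached the mean and none passed. Among them anac025 (MSTRG.22032) was at 2.02, 6.03 and 3.42 FPKM in Vv plants and at 0.887, 0.335 and 0.510 FPKM in Vs hybrids. In the other direction, anac032 (MSTRG.9589) was at 11.4, 9.83 and 7.38 FPKM and at 63.4, 26.0 and 10.6 FPKM, with overlap. Over the 14 tested NAC genes of any case, 8 log2 fold changes were below 0 and 6 above, with a median of -0.16. CUC3 (VIT_18s0122g00800), a boundary gene outside miR164 control in *Arabidopsis thaliana*, was at most at 0.157 FPKM in any library.

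Of the genes that make and load miRNAs, 5 were found and 4 tested, and none passed at an adjusted p under 0.05 by limma (lowest 0.168), beside 0.557% of all genes, with an unadjusted p under 0.05 in 2, beside 20.4% of all genes. DCL1 (MSTRG.7256), the Dicer that cuts miRNA precursors, was at 10.8, 14.3 and 12.4 FPKM in Vv plants and at 4.68, 7.31 and 6.71 FPKM in Vs hybrids. The groups did not overlap, and its log2 fold change was -0.91 (SE 0.24, adjusted p = 0.168 by limma). TGH (MSTRG.8822), an RNA-binding partner of DCL1, was at 9.02, 9.73 and 5.61 FPKM and at 2.43, 4.47 and 4.97 FPKM (adjusted p = 0.213 by limma). HYL1 (MSTRG.9841), which places the cut of DCL1, was at 1.26, 5.78 and 5.46 FPKM and at 1.08, 0.693 and 3.87 FPKM, and HST (MSTRG.5673), the exportin-5 homologue, at 4.32 to 6.94 and 2.44 to 5.30 FPKM. Both had overlapping groups. ZLL (MSTRG.15622), an Argonaute of the meristem, was at 0.956, 2.21 and 1.45 FPKM in Vv plants and at 0.501, 0.235 and 0.563 FPKM in Vs hybrids, under the mean set for the test.

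Of genes that act with CUC genes or with ORE1 in *Arabidopsis thaliana*, 8 were found and 6 tested. None passed at an adjusted p under 0.05 by limma (lowest 0.218), beside 0.557% of all genes, with an unadjusted p under 0.05 in 2, beside 20.4% of all genes. EIN2 (MSTRG.19163), which relays ethylene signals, was at 22.2, 26.2 and 20.7 FPKM in Vv plants and at 10.2, 15.8 and 16.4 FPKM in Vs hybrids. NYC1 (MSTRG.2266), a chlorophyll b reductase of leaf yellowing, was at 24.1, 24.7 and 15.3 FPKM in Vv plants and at 35.8, 28.7 and 43.8 FPKM in Vs hybrids. Neither had overlapping groups, beside 26.2% of all genes without overlap and lower in Vs and 5.55% without overlap and higher, and the adjusted p were 0.218 and 0.225 by limma. KNAT1 (MSTRG.9908), a meristem homeobox gene, was at 3.52 to 9.54 and 1.52 to 6.44 FPKM (adjusted p = 0.385 by limma). SAG29 (MSTRG.1142), a sugar transporter of senescing leaves, had the highest mean and ranged from 4.82 to 237 FPKM in Vv plants and from 73.2 to 284 FPKM in Vs hybrids. STM (MSTRG.1911), a meristem homeobox gene, was at 0.922, 2.02 and 1.84 FPKM in Vv plants and at 0.649, 0.185 and 0.341 FPKM in Vs hybrids, with a mean under 1 FPKM.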

How the data were processed

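Values came from 3 deposited tables. The authors counted 18 to 25 nt reads per miRNA with ACGT101-miR, and the deposited values are estimated counts, which were rounded. Entries with the same sequence were used once. So were entries with the same counts whose names differed only in a final number, which left 1024 entries. The authors aligned RNA-seq reads with HISAT and estimated FPKM with StringTie, and the depth behind an FPKM value was not analysed here. For the degradome the authors deposited, per site, the read count, a scaled read signal, an alignment score and a CleaveLand p-value. No genome build is named in those sources. The authors' own normalized miRNA values were not used.

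miRNA counts were tested with edgeR 4.0.16 (TMM, filterByExpr, quasi-likelihood) and, as an alternative, DESeq2 1.42.0. FPKM were tested with limma 3.58.1 on log2(FPKM + 1) where the mean over the 6 libraries reached 1 FPKM. Benjamini-Hochberg adjustment ran over all tested features. The scripts were tested on simulated data. The members and lists were chosen with earlier results of these data known. Named in full were the miR164 entries past the count filter and the degradome targets in category 0 to 2. Targets with a NAC name were also to be named in full, but no target had such a name. The other entries and targets were given by range and counts. From each other list, the genes past the threshold, the 3 with the highest mean and the 3 with the smallest p were named. Alternatives covered scaling, filters, pseudocount, tool, a replicate block and each library left out. Replicates were separate plants.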

Additional observations from a re-analysis of the deposited data

How the results depend on the processing

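The numbers of miRNAs past the threshold were 20 as reported, 45 with DESeq2, 0 with the replicate block and between 1 and 17 with 1 library left out. For miR164 sequences they were 1 as reported, 2 with DESeq2, which adds the tcc entry, 0 with the replicate block and 0 to 1 with 1 library left out. The fold change of vvi-miR164a kept its direction in all 12 alternatives (-2.11 to -1.80) and passed in 6, and the library that could be left out without losing the call was Vv replicate 3. The summed 5p level kept a log2 ratio between -2.06 and -1.77 in all alternatives, and 3 plants against 3 allow no exact p below 0.1. For genes the number was 86 as reported, 0 with the replicate block and between 25 and 91 with 1 library left out, and the split of 43 higher and 43 lower became 43 and 20 under median-ratio scaling and 44 and 24 under quantile normalization. For targets it was 1 as reported and 0 with pseudocount 0.1, without the FPKM filter, under median-ratio scaling, under quantile normalization, with the replicate block, and with each library left out (0 to 0). The cause was not tested. The counts for the other NAC, machinery and pathway genes were 0 in every alternative. Of the 15 genes or transcripts with degradome sites, 8 were left in categories 0 to 2, 3 at an alignment score of at most 3 and 6 for 5p-arm entries.

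The reported fits did not pair samples by their shared replicate numbers. The correlations of deviations from the group means were -0.18, 0.01 and -0.11 for miRNAs and 0.17, -0.05 and 0.04 for genes. With 3 libraries per group, these values cannot settle whether the numbers pair the samples. With the block, adjusted p was 0.0531 for vvi-miR164a and 0.0923 for MSTRG.12014.

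The log2 fold change of MSTRG.216 turned to 0.086 under median-ratio scaling and 0.038 under quantile normalization. With 1 library left out, sign changes occurred in MSTRG.1146 (-0.63 to 0.12), MSTRG.12186 (-0.0022 to 0.97), MSTRG.3997 (-0.30 to 0.81), MSTRG.21857 (-1.55 to 0.084) and MSTRG.8651 (-0.14 to 0.30). The other 2 sequences or genes whose call changed are vvi-miR164a and MSTRG.12014, and tcc-miR164a_L+1 passed with DESeq2 alone. Of the 26 compared, 17 kept sign and call throughout. Depth limits the 6 rarely read names.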
